A study of Mus musculus with 12 samples.

Results

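The response of RAW264.7 cells to lipopolysaccharide (LPS) in medium without added NaCl was described from 6 of the 12 arrays of the series, chosen by their titles: 3 arrays of untreated cells (NS) and 3 of cells given 10 ng/ml LPS (NS + LPS), all at 24 h. RAW264.7 is a transformed mouse macrophage line, so every array carries the RNA of that line and none that of primary macrophages. The other 6 arrays, HS and HS + LPS, had 40 mM added NaCl. They were used here to estimate the spread between arrays and to compare the LPS effect in the other medium. They also took part in the filter on dim probes and in the choice of the brightest probe of a gene. Of the genes tested, 117 passed that filter through these arrays alone. The labels do not spell out NS and HS, which were read as normal and high salt from the titles, and nothing in them says whether a replicate was its own culture. The p-values therefore rest on the spread between arrays alone, and that spread may be technical.

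LPS is a component of the outer membrane of Gram-negative bacteria. Macrophages bind it through CD14 and the TLR4 and MD-2 complex, which signals along a MYD88 branch to NF-kB and AP-1 and along a TRIF branch to IRF3. The IRF3 branch leads to interferon beta, which acts back on the cell through its receptor, so that a later layer of interferon-stimulated genes follows the early cytokine genes.

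Signal is given below as multiples of the array's own 75th percentile over all non-control spots. A log2 difference is the mean of NS + LPS minus the mean of NS on that scale, and a call means an adjusted p under 0.05 in limma, with the Benjamini-Hochberg adjustment made over all 13839 genes tested. The 75th percentile itself ran from 641.4 to 782.6 in NS and from 621 to 634.6 in NS + LPS, and 49.4 to 50.6% and 45 to 49.8% of probes were well above background. Correlations across probes were 0.997 to 0.998 within NS, 0.996 to 0.997 within NS + LPS and 0.966 to 0.967 between the groups. The third NS + LPS array lay on another slide than the other 5, scanned on the same day. All 8 macrophage markers were well above background on every array of both groups, with a summed level of 811 to 851 in NS and 817 to 859 in NS + LPS. The similar sums do not mean that each marker was unchanged. Of the 8, 3 were called higher and 5 lower, with a median log2 difference of -0.26. The shares were 37.5% and 62.5%, against 28.6% and 35.1% of all genes. Since RNA was measured in bulk, fewer cells of a type and less RNA per cell cannot be told apart in anything that follows.

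Most genes measured differed with LPS, and the large differences were mostly rises. The fit called 8825 of 13839 genes (63.8%), 3963 higher (28.6%) and 4862 lower (35.1%). The direction of a gene is that of its brightest probe. Of 3996 genes with several probes, 429 had probes called in opposite directions in a fit over all named probes. Of these, 410 were among the genes called. The median difference of all genes was -0.034. At least 2-fold changes numbered 1662, of which 926 (6.69%) were higher and 736 (5.32%) lower. The balance tilted with size. At 4-fold or more there were 383 higher and 118 lower, at 8-fold 208 and 38, at 16-fold 117 and 12, and at 32-fold 64 and 5. Many calls were small, 1846 of them under 1.2-fold, with a median standard error of 0.066 on the log2 scale. The arrays of the groups did not overlap for 9633 genes (69.6%). On the slide shared by NS and the other two NS + LPS arrays alone, 8200 genes were called and 1678 of them changed at least 2-fold.

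**Figure D1:**
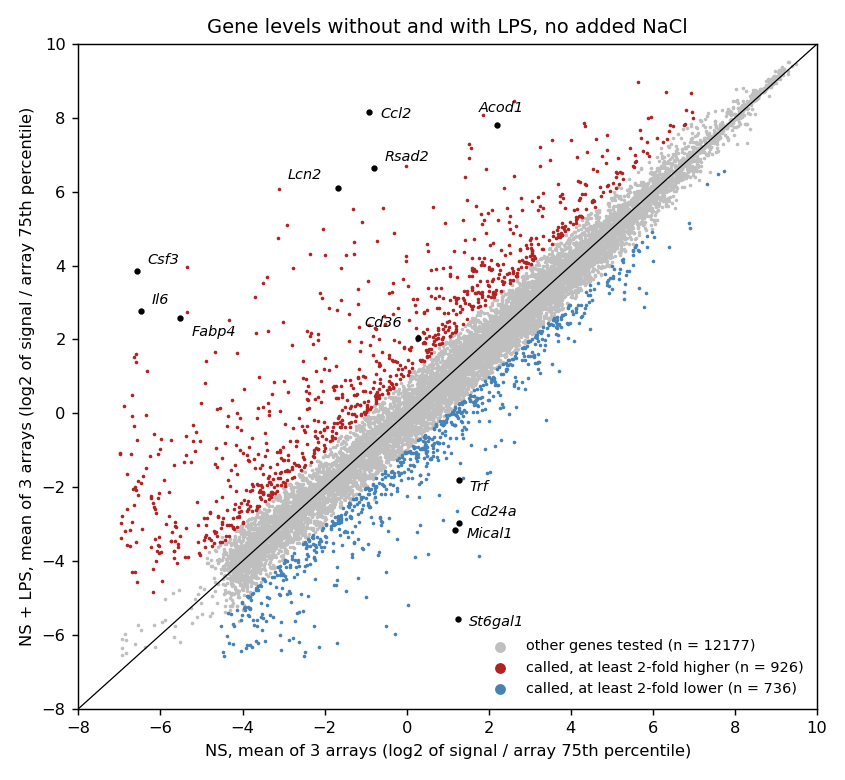
Mean level of each of 13839 genes in NS (horizontal axis) and NS + LPS (vertical axis), as log2 of the signal over the array's 75th percentile, n = 3 arrays per group. Red points are the 926 genes called at least 2-fold higher, blue points the 736 called at least 2-fold lower, grey points the other genes, black points genes named beside them and the line marks equal levels; the red points reach much further from the line than the blue ones.

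Among genes well above background on all arrays of both groups, the stefin gene Cstdc4, which codes for a cysteine protease inhibitor, rose most. Its signal was 0.136, 0.0981 and 0.116 on the NS arrays and 67.2, 68.9 and 67.4 on the NS + LPS arrays, a 586-fold rise (log2 difference 9.19, SE 0.13, adjusted p = 2.59e-12; chromosome 16, 36188043 to 36188102, mm9 probe coordinates here and below). Its near-identical neighbours on the array mean that stefin probes may share signal. The monocyte attractant Ccl2 was at 0.52, 0.574 and 0.506 on the NS arrays and 283, 297 and 271 on the NS + LPS arrays (533-fold, log2 difference 9.06, SE 0.14, adjusted p = 5.19e-12; chromosome 11, 81850650 to 81850709). The neutrophil attractant Cxcl2 read 0.131, 0.123 and 0.144 on the NS arrays and 34.8, 36 and 32.9 on the NS + LPS arrays (261-fold; chromosome 5, 91334534 to 91334593). No NS array came near an NS + LPS array for these genes. Uridine phosphorylase Upp1, which splits uridine for salvage, rose from 0.105, 0.115 and 0.121 in NS to 27.4, 27 and 25.8 in NS + LPS (its other probe rose by 4.76). The siderophore-binding protein gene Lcn2, which withholds iron from bacteria, stood at 0.313, 0.327 and 0.303 on the NS arrays and 66.6, 65.8 and 72.7 on the NS + LPS arrays (218-fold; chromosome 2, 32240199 to 32240258). The rest of the 12 largest rises were Rsad2, Ifit3, Ifit3b, Mx1 and Zbp1 of the interferon response, the prostaglandin synthase gene Ptgs2, and Rgs16, an inhibitor of G-protein signalling (105-fold).

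A further set of genes was well above background on all 3 NS + LPS arrays and on no NS array, so only a lower bound of the change can be given. The bound sets the NS + LPS mean against the lowest signal among probes well above background on each NS array, or the gene's own signal there if higher. Csf3, which codes for the neutrophil growth factor G-CSF, was at least 380.5-fold higher, with 0.0138, 0.00915 and 0.00911 on the NS arrays and 14.6, 14.8 and 13.9 on the NS + LPS arrays (chromosome 11, 98564614 to 98564673). Il6, the fever and acute-phase cytokine, was at least 179-fold higher, with 0.0126, 0.0124 and 0.00922 on the NS arrays and 7.0, 7.26 and 6.18 on the NS + LPS arrays (chromosome 5, 30346367 to 30346426). The p200 family gene Ifi209 was at least 409.8-fold higher and the stefin gene Csta3 at least 176-fold, both with near-identical relatives on the array. Fabp4, a fatty acid carrier of fat cells and macrophages, was at least 159-fold higher (chromosome 3, 10204452 to 10204511) and the monocyte attractant Ccl7 at least 80.5-fold (chromosome 11, 81860656 to 81860715). Across all genes tested, 105 were well above background in NS + LPS alone and 171 in NS alone.

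The largest falls were smaller than the largest rises. Mical1, a monooxygenase that takes actin filaments apart, read 2.31, 2.33 and 2.18 on the NS arrays and 0.106, 0.116 and 0.112 on the NS + LPS arrays (20.4-fold lower, log2 difference -4.35, SE 0.074, adjusted p = 1.15e-11; chromosome 10, 41206772 to 41206831). Cd24a, a small lipid-anchored surface glycoprotein, read 2.42, 2.37 and 2.5 on the NS arrays and 0.148, 0.124 and 0.112 on the NS + LPS arrays (19.1-fold lower; chromosome 10, 43303706 to 43303765). Cytip, which tethers cytohesin and restrains adhesion, fell 14.7-fold. The mitochondrial acetyl-CoA synthetase gene Acss1 went from 10.6, 10.8 and 10.3 in NS to 0.868, 0.847 and 0.914 in NS + LPS (12-fold lower; chromosome 2, 150443871 to 150443930). Gas6, the ligand of the receptors that dampen inflammation and clear dead cells, went from 3.93, 3.76 and 4.01 in NS to 0.33, 0.331 and 0.323 in NS + LPS (11.9-fold lower; chromosome 8, 13465444 to 13465503). The sialic acid receptor Cd33 fell 10.5-fold and the B7 family ligand Cd276 8.91-fold. Asb10, Exoc3l2 (its other probe at -1.34), Card14, Gm5086 and the kinase gene Aatk made up the rest of the 12, at -4.33, -3.62, -3.48, -3.36 and -3.14 on the log2 scale. The sialyltransferase gene St6gal1 was well above background in NS alone, with 2.4, 2.44 and 2.34 on the NS arrays and 0.0164, 0.0199 and 0.0293 on the NS + LPS arrays, and was at least 46-fold lower with LPS (chromosome 16, 23360037 to 23360096); its other probe differed by -1.33. Bounds of the same kind were 13.6-fold for the p38 target kinase Mapkapk3, 9.36-fold for haptoglobin, Hp, 8.43-fold for the death receptor Tnfrsf25, 6.89-fold for 2310076G05Rik and 5.91-fold for Garnl3.

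The genes of the sensing machinery moved by small amounts. Of 29 genes for Toll-like receptors, co-receptors and adaptors on the array, 25 passed the filter on dim probes, 13 of them called higher (52%, against 28.6% of all genes) and 9 lower (36%, against 35.1%), with a median of 0.14 (0.22 with cyclic loess normalization). Cd14, which hands LPS to the receptor, read 126, 126 and 126 on the NS arrays and 261, 249.6 and 257 on the NS + LPS arrays (2.03-fold, log2 difference 1.02, SE 0.044, adjusted p = 1.21e-08). Tlr4 itself read 4.16, 4.32 and 4.2 on the NS arrays and 5.0, 4.76 and 4.73 on the NS + LPS arrays (1.14-fold, log2 difference 0.19, SE 0.053, adjusted p = 0.00924; chromosome 4, 66503470 to 66503529). The groups did not overlap for either gene, but the step in Tlr4 was small. Its partner Ly96, the MD-2 protein, rose by 0.69 and the TRIF adaptor Ticam1 by 0.93. Falls were seen for the lipoprotein receptor Tlr2 (-1.07, SE 0.065), which went from 48.6, 47.1 and 47.2 in NS to 23.7, 22.5 and 21.9 in NS + LPS, and for the bacterial RNA receptor Tlr13 (-0.96, SE 0.078). The signalling kinase Irak1 fell most of the list (-1.36, SE 0.046; chromosome X, 71259533 to 71259592), while its inhibitory relative Irak3 rose by 0.77.

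Genes that brake the signal were among those that rose. NF-kB subunits and feedback inhibitors were called higher in 13 of 20 and lower in 3 (median 0.48), 65% and 15% against 28.6% and 35.1% of all genes. The signalling adaptor Traf1 led them at 2.78, 2.61 and 2.71 without LPS and 25.3, 26.3 and 25.9 with it (9.58-fold, log2 difference 3.26, SE 0.06, adjusted p = 2.01e-11; chromosome 2, 34798882 to 34798941). Nfkbiz, the nuclear co-factor that NF-kB needs at genes such as Il6, rose 6.1-fold from 0.23, 0.199 and 0.214 in NS to 1.28, 1.39 and 1.25 in NS + LPS. The kinase Ikbke, which works in the interferon branch, rose by 1.65. The classic inhibitors rose less, Nfkbia by 0.69 on the log2 scale, from signals of 78.7, 72.5 and 71.6 without LPS and 123, 121 and 116 with it, and Tnfaip3 by 0.46. Among SOCS and DUSP genes, inhibitors of cytokine receptors and of MAP kinases, 11 of 17 were higher and 3 lower (median 1.19, or 0.66 over genes above background on every array). In shares this was 64.7% and 17.6%, against 28.6% and 35.1% of all genes. Cish was at least 25.6-fold higher, being well above background in NS + LPS alone. Socs3, which limits signalling by the Il6 receptor, read 3.44, 3.64 and 3.58 on the NS arrays and 34.5, 36.2 and 34.3 on the NS + LPS arrays (9.85-fold; chromosome 11, 117827480 to 117827539), and Socs1, which limits signalling by interferon, rose 7.67-fold. Dusp5 rose 12.1-fold and Dusp1 by 2.28, whereas Dusp3 fell by 1.12 on the log2 scale.

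Immediate early transcription factor genes, which often peak within an hour or so of a stimulus, were higher at this late time in 15 of 21 and lower in 4 (median 0.79). These are 71.4% and 19%, against 28.6% and 35.1% of all genes. Myc, which drives growth and metabolism genes, read 0.0877, 0.074 and 0.0873 on the NS arrays and 1.92, 1.97 and 2.01 on the NS + LPS arrays (23.8-fold, log2 difference 4.57, SE 0.18, adjusted p = 5.3e-09; chromosome 15, 61821417 to 61821476). Fosl1 rose 8.17-fold and Egr1 6.5-fold, with no overlap between the groups. Fos (-0.33) and Jun (-0.31) were slightly lower. Among 8 factors that set how long cytokine mRNAs last, 5 fell and 1 rose, or 62.5% and 12.5%. Of all genes, 35.1% fell and 28.6% rose. Zfp36l2 and Zfp36l1, which bind AU-rich elements and promote decay, fell by 0.91 and 0.83 on the log2 scale, and the endonuclease family gene Zc3h12c rose by 1.41.

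**Figure D2:**
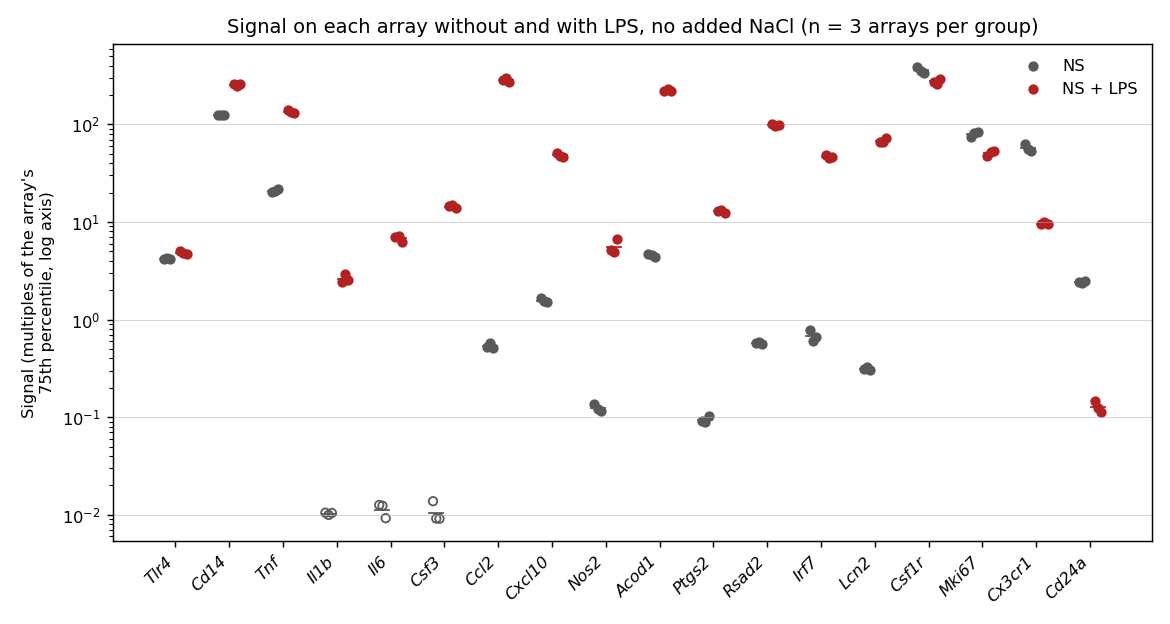
Signal of 18 genes on each of the 3 NS arrays (grey) and 3 NS + LPS arrays (red), in multiples of the array's 75th percentile on a log axis; bars are geometric means and open circles mark genes not well above background on any array of that group. For each gene the 3 arrays of a group lie close together, and the distance between groups ranges from small for Tlr4 to very wide for Csf3 and Il6; heights of different genes are not comparable, since each comes from its own probe.

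Cytokine genes held some of the widest changes. Of 28 cytokine and colony-stimulating factor genes on the array, 20 passed the filter, and 17 of these were higher and 2 lower. The shares of 85% and 10% stand against 28.6% and 35.1% of all genes. Of the 20, 9 passed only through NS + LPS and so had to differ. Besides Csf3 and Il6, Il1b, the precursor of the fever cytokine IL-1 beta, was at least 69.2-fold higher (0.0105, 0.00996 and 0.0104 without LPS and 2.45, 2.92 and 2.52 with it; chromosome 2, 129190347 to 129190406). Csf2, which codes for the growth factor GM-CSF, was at least 25.5-fold higher (0.0132, 0.0126 and 0.0109 without LPS and 0.915, 1.09 and 0.906 with it; chromosome 11, 54060772 to 54060799). Tnf, an early cytokine that these cells already expressed, read 20.1, 20.9 and 21.6 on the NS arrays and 139.6, 134 and 130.5 on the NS + LPS arrays (6.46-fold, log2 difference 2.69, SE 0.043, adjusted p = 7.04e-12; chromosome 17, 35336795 to 35336854). Its change was thus near the middle of the list, from a level well above background in both groups. The monocyte growth factor Csf1 rose by 3.31, Il27 by 2.36, Il18 by 2.32 and Osm by 2.43. The anti-inflammatory Il10 was on the array and was not well above background on any of the 6 arrays, with 0.0233 to 0.0294 in NS and 0.0459 to 0.0533 in NS + LPS. Tnfsf9 and the stress cytokine Gdf15 fell, by 0.97 and 0.62 on the log2 scale.

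CC chemokines, which recruit monocytes and T cells, were higher in 8 of 10 tested of 14 on the array (median 3.06, 2.52 with genes at their bound and 1.99 with no filter), 2 of them passing through NS + LPS alone. The 80% higher and 0% lower stand against 28.6% and 35.1% of all genes. Ccl5, a T cell attractant, read 3.98, 3.53 and 3.37 on the NS arrays and 262, 267 and 281 on the NS + LPS arrays (74.5-fold; chromosome 11, 83339296 to 83339355). Ccl3 and Ccl4 rose by 2.79 and 3.33, and the constitutive macrophage chemokines Ccl6 and Ccl9 by 2.24 and 1.74. The CXC list was split, with 2 higher (40%), 2 lower (40%) and 1 not called of 5 tested. Cxcl10, an interferon-responsive T cell attractant, read 1.65, 1.53 and 1.53 on the NS arrays and 50.5, 47.6 and 46.8 on the NS + LPS arrays (30.8-fold, log2 difference 4.94, SE 0.054, adjusted p = 7.67e-13; chromosome 5, 92775781 to 92775840). Cxcl14, a chemokine made by resting tissues, moved the other way, from 8.96, 9.76 and 8.96 in NS to 2.19, 2.35 and 2.39 in NS + LPS (3.99-fold lower; chromosome 13, 56390078 to 56390137), and the membrane-bound Cxcl16 fell by 0.69 on the log2 scale.

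The promoters of Cxcl2, Cxcl10 and Il6 are shown because these are strongly raised cytokine and chemokine genes and because binding sites of NF-kB are well known features of them. The 250 bases before the annotated start are from RefSeq on GRCm38.p6, read 5′ to 3′ on the gene's strand (chr5:90903649-90903898, plus strand for Cxcl2; chr5:92348890-92349139, minus strand for Cxcl10; chr5:30012864-30013113, plus strand for Il6). Capitals mark matches to the kB motif GGGNNNTTCC or to the interferon-stimulated response element (ISRE) motif GAAANNGAAA, on either strand.
Cxcl2: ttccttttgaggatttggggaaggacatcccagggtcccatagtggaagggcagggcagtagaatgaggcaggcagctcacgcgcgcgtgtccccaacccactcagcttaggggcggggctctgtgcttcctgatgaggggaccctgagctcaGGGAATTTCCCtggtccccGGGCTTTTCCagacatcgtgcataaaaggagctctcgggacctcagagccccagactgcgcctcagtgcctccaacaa
Cxcl10: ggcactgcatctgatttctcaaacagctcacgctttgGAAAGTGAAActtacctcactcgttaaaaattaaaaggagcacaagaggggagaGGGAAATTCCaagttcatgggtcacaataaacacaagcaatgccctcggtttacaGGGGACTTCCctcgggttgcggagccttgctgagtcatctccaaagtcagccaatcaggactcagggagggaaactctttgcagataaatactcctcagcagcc
Il6: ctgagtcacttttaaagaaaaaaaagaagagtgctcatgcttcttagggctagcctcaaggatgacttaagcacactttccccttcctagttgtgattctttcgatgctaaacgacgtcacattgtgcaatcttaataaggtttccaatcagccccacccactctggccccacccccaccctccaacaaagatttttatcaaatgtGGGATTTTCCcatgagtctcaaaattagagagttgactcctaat
In Cxcl2 the matches lie at -97 to -87, where the forward and reverse forms overlap, and at -78 to -69 from the start. Cxcl10 holds kB matches at -159 to -150 and -104 to -95 and an ISRE match at -213 to -204. Il6 holds a kB match at -44 to -35. The windows of Tnf, Il1b and Csf2, also raised, hold no kB match, so the 3 shown do not stand for all raised cytokine genes. A kB match was in 2 of 13 cytokine windows (15.4%), 1 of 5 CC windows and 2 of 3 CXC windows. The share over genes tested was 5.26%. A match to these letters is a description of the sequence and not evidence of binding in these cells.

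The interferon layer moved nearly as a whole. Of 40 antiviral interferon-stimulated genes tested, all of them well above background in both groups, 39 were higher (median 3.59), 37 of these at least 2-fold, against 6.69% of all genes. The single exception was the nucleotide hydrolase gene Samhd1 (-0.013, adjusted p = 0.828), whose other probes reached 1.98. Rsad2, which makes a chain-terminating nucleotide against viruses, read 0.58, 0.588 and 0.563 on the NS arrays and 102, 96.6 and 98.7 on the NS + LPS arrays (172-fold, log2 difference 7.42, SE 0.035, adjusted p = 2.13e-15; chromosome 12, 27127859 to 27127918). Ifit3, of the family that binds viral RNA, read 0.199, 0.277 and 0.266 on the NS arrays and 32.4, 31.8 and 31.6 on the NS + LPS arrays (130.3-fold; chromosome 19, 34663105 to 34663164), and its near-identical copy Ifit3b gave 116-fold, a value that may share signal with it. The antiviral GTPase Mx1 read 0.0898, 0.0992 and 0.0783 on the NS arrays and 12, 10.8 and 11.6 on the NS + LPS arrays (129-fold; chromosome 16, 97668644 to 97668703). Zbp1, a sensor of Z-form nucleic acid that can start cell death, read 0.452, 0.404 and 0.368 on the NS arrays and 48, 44.1 and 48.2 on the NS + LPS arrays (115-fold; chromosome 2, 173039307 to 173039366). Cmpk2 (6.30), which supplies nucleotides in mitochondria, Isg15 (5.85), a ubiquitin-like modifier, and the RNA sensors Ifih1 (4.08) and Ddx58 (3.73) rose as well. The smallest called rises of the list were those of Ifi27 (0.38) and Trim25 (0.68).

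Upstream, the interferon signalling genes were higher in 13 of 20 and lower in 4 (median 0.40). That is 65% and 20%, against 28.6% and 35.1% of all genes. Ifnb1, the interferon that links both layers, was at least 25.1-fold higher (0.0103, 0.00939 and 0.00924 without LPS and 1.05, 0.836 and 0.978 with it; chromosome 4, 88168023 to 88168082). Irf7, which amplifies interferon genes, read 0.784, 0.599 and 0.659 on the NS arrays and 48.2, 45.5 and 46.7 on the NS + LPS arrays (69.2-fold, log2 difference 6.11, SE 0.10, adjusted p = 7.5e-12; chromosome 7, 148450664 to 148451014). Usp18, which takes Isg15 off proteins and blocks the interferon receptor, rose 31.9-fold (chromosome 6, 121220874 to 121220933). Stat2 rose 5.63-fold and Irf9 by 1.56. The receptor subunits went the other way, Ifnar1 at -1.09 (other probes up to 0.019) and Ifnar2 at -0.53, and Irf3, which is activated by phosphorylation, was not called (0.042, adjusted p = 0.511).

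The interferon-inducible GTPases of the GBP and IRG families attack the vacuoles of intracellular microbes. All 11 members tested of 14 on the array were called higher (median 3.65), against 28.6% of all genes. Of these 11, 1 passed only through NS + LPS. That gene, Gbp7, was at least 78.5-fold higher (0.0437, 0.0355 and 0.0393 without LPS and 3.21, 3.16 and 3.13 with it). Gbp3 read 0.207, 0.265 and 0.25 on the NS arrays and 8.96, 8.39 and 8.99 on the NS + LPS arrays (36.7-fold; chromosome 3, 142236032 to 142236091) and Gbp2 0.0492, 0.0693 and 0.0536 on the NS arrays and 1.0, 0.998 and 1.0 on the NS + LPS arrays (17.7-fold; chromosome 3, 142300719 to 142300778). Igtp, Irgm2 and Irgm1 rose by 3.86, 3.65 and 3.36. Members of these families resemble each other closely, so their probes may share signal.

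Rsad2, Ifit3 and Gbp2 are shown as examples of raised interferon genes, picked because their windows hold an ISRE (as do those of Ifit3b, Gbp7 and Gbp3), with the same marks and build (chr12:26456453-26456702, minus strand for Rsad2; chr19:34583279-34583528, plus strand for Ifit3; chr3:142620413-142620662, plus strand for Gbp2).
Rsad2: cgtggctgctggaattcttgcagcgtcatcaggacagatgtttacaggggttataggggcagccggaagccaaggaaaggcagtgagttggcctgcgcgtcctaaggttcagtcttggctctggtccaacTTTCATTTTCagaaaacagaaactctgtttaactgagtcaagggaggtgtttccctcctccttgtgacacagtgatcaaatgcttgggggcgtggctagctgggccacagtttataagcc
Ifit3: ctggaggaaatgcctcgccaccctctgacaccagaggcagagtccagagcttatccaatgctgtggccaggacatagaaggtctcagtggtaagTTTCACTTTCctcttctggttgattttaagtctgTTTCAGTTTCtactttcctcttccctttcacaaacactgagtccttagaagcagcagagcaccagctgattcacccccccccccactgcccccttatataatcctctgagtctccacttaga
Gbp2: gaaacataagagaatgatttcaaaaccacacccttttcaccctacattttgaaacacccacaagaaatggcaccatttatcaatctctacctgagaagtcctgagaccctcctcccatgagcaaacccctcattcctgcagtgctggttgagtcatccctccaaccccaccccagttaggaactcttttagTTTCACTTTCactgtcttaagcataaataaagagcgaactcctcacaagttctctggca
The ISRE matches, all on the reverse strand, lie at -120 to -111 in Rsad2, at -156 to -147 and -122 to -113 in Ifit3 and at -59 to -50 in Gbp2. All 7 GTPase genes with a promoter window held an ISRE match, as did 9 of 29 in the antiviral list (31.0%), against 821 of all 27025 windows (3.04%) and 2.81% of the windows of genes tested.

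Across the whole response the ISRE share was larger among the larger rises. It was 24.1% in the 145 windows of genes called at least 8-fold higher, 10.4% in 689 at least 2-fold higher, 2.06% in 533 at least 2-fold lower and 2.47% in windows of genes not called. The kB motif was in 10.3% of the windows of genes at least 8-fold higher, 7.11% at least 2-fold higher and 5.44% at least 2-fold lower, against 5.26% of genes tested. It was found in 7 of 16 windows of the NF-kB and inhibitor list (43.8%), among them Nfkbia and Tnfaip3. The AP-1 motif TGANTCA gave 14.5%, 8.27% and 4.88% in the same order, against 4.43%, and the STAT motif TTCNNNGAA (GAS) gave 11%, 7.4% and 5.44%, against 6.08%. The E2F motif TTTNGCGC, a feature of cell cycle genes, was in only 1 of 145, 5 of 689 and 9 of 533 windows. These shares of 0.69%, 0.726% and 1.69% lay below the 2% of genes tested. Genes of a family share promoter sequence and are not independent here, and 10428 of the 13839 genes tested had a window.

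**Figure D3:**
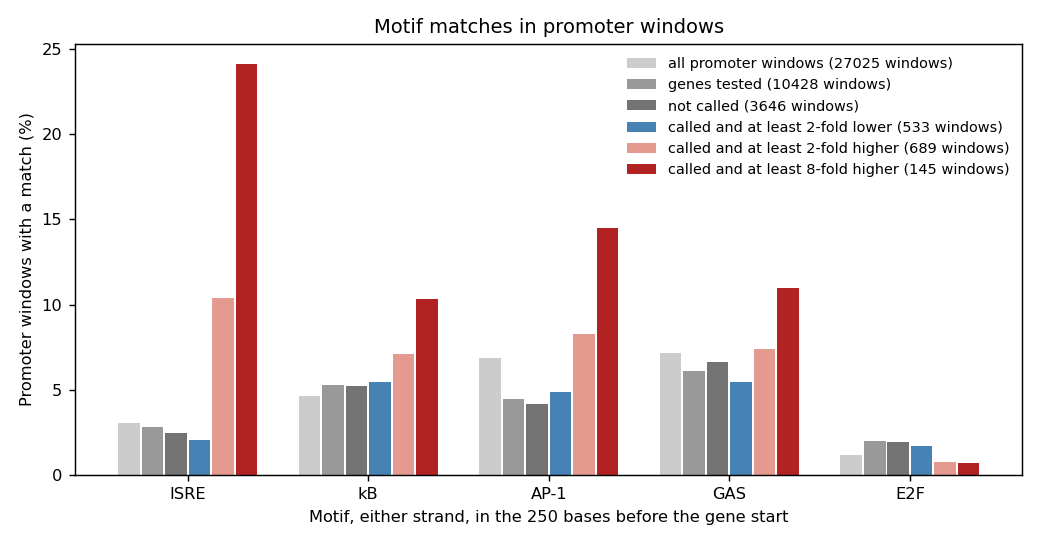
Share of promoter windows with a match to each motif on either strand, by set of genes, with the number of windows in the legend. A window is the 250 bases before the RefSeq start (GRCm38.p6), the first listed for each gene. The ISRE share is 24.1% in genes at least 8-fold higher and 2.06% in genes at least 2-fold lower; the bars are shares of windows and carry no error bars because no test was made.

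**Figure D4:**
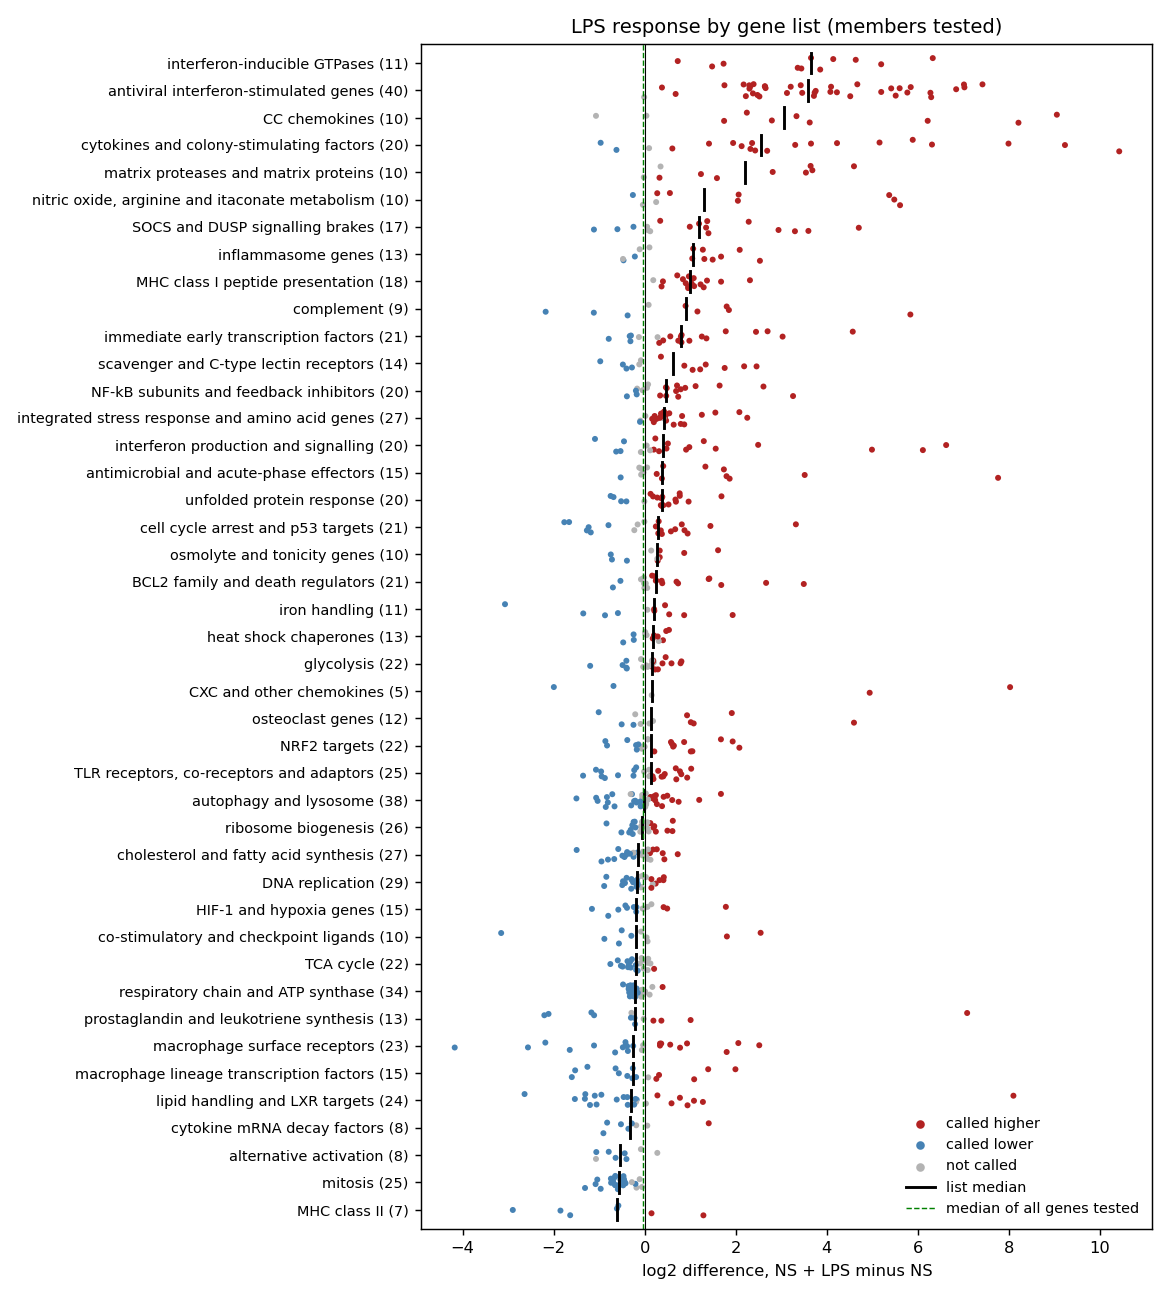
Log2 difference, NS + LPS minus NS, of each tested member of 43 gene lists, ordered by list median (black bars), with the number of members in brackets; red points were called higher, blue lower, grey not called, and the dashed green line is the median of all genes tested, -0.034. The interferon-inducible GTPase, antiviral, CC chemokine and cytokine lists lie at the top, the mitosis and MHC class II lists at the bottom.

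The other gene groups are given by the number of members called in each direction and their median, beside the -0.034 of all genes. Each count reads against the 28.6% of all genes called higher and the 35.1% called lower. Where nothing else is said, at most 1 member of a list passed the filter through NS alone and at most 1 through NS + LPS alone. No list median changed sign between the scalings tried, though 7 of the 43 moved by over 1.5 times with quantile normalization, the medians close to 0 among them.

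Genes of peptide presentation by MHC class I rose, and those of class II did not follow. For class I, 17 of 18 genes were higher (median 1.00). Tap1, a subunit of the peptide transporter, read 1.27, 1.34 and 1.4 on the NS arrays and 6.78, 6.82 and 6.32 on the NS + LPS arrays (4.97-fold, log2 difference 2.31, SE 0.058, adjusted p = 2.18e-10; chromosome 17, 34330854 to 34330913). Its activator Nlrc5 rose 3.2-fold and the loading factor Tapbp 2.58-fold, while B2m rose by 0.97 and H2-K1 by 0.90. Class II gave 2 higher and 5 lower of 7 tested (median -0.61, or -0.58 with genes at their bound; -0.36 with normexp background correction and -0.38 with no filter), at levels near background for several; H2-Ob and H2-Eb1 passed the filter through NS alone and so had to be lower. H2-Oa fell from 0.657, 0.707 and 0.704 in NS to 0.216, 0.233 and 0.215 in NS + LPS (-1.64, SE 0.062) and H2-Ab1 by 0.61 on the log2 scale. H2-Ob was at least 2.92-fold and H2-Eb1 at least 1.42-fold lower. The invariant chain gene Cd74 rose instead, from 29, 31 and 29.6 in NS to 68.6, 70.5 and 80.5 in NS + LPS (2.44-fold). Among co-stimulatory ligands, Cd40 rose 3.5-fold and the inhibitory ligand Cd274 5.84-fold, with 5 of 10 lower, among them Cd276, Havcr2 (-0.89), a receptor that restrains immune cells, and Cd80 (-0.51, its other probe at 1.47).

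Inflammasome and death genes mostly rose. Of 13 inflammasome genes 8 were higher and 2 lower (median 1.06). Casp4, the caspase that binds LPS inside the cell, read 3.78, 4.44 and 4.07 on the NS arrays and 24.3, 23.7 and 22.9 on the NS + LPS arrays (5.78-fold, log2 difference 2.53, SE 0.076, adjusted p = 8.22e-10; chromosome 9, 5336658 to 5336717). The peptidoglycan sensors Nod1 and Nod2 rose 4.25-fold and 2.81-fold, Nlrp3 by 1.28 and the pore former Gsdmd by 1.06, while Aim2 fell by 0.47 on the log2 scale. In the BCL2 and death list 13 of 21 were higher and 2 lower (median 0.24). Bcl2l11, which codes for the killer BIM, read 0.447, 0.451 and 0.45 on the NS arrays and 4.94, 4.87 and 5.43 on the NS + LPS arrays (11.3-fold; chromosome 2, 127972893 to 127983988; its other probe rose by 1.44). Mlkl, the pore of necroptosis, rose 6.35-fold, Fas 3.21-fold and the caspase 8 inhibitor Cflar 2.67-fold (its probes ranged from 0.079 to 1.70). The survival genes Bcl2 and Mcl1 fell by 0.70 and 0.53 on the log2 scale.

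Several enzymes that make microbicidal and signalling metabolites rose steeply. Acod1, whose product itaconate inhibits bacterial growth and succinate dehydrogenase, read 4.7, 4.61 and 4.4 on the NS arrays and 221, 229.9 and 219 on the NS + LPS arrays (48.9-fold, log2 difference 5.61, SE 0.052, adjusted p = 3.68e-13; chromosome 14, 103455171 to 103455231). Nos2, the inducible nitric oxide synthase, read 0.135, 0.123 and 0.115 on the NS arrays and 5.18, 4.96 and 6.69 on the NS + LPS arrays (44.8-fold, log2 difference 5.48, SE 0.13, adjusted p = 1.58e-10; chromosome 11, 78773567 to 78773626). Hdc, which makes histamine, rose 41.4-fold from 0.255, 0.227 and 0.214 in NS to 9.8, 9.58 and 9.4 in NS + LPS, and Odc1, the entry to polyamines, 4.18-fold. Gch1, which supplies the cofactor of Nos2, rose by 2.05 (its other probe by 0.29). In that list 7 of 10 were higher and 1 lower (median 1.30, 0.48 with no filter and 0.86 with the mean over probes). Arg1, which competes with Nos2 for arginine, was not well above background on any of the 6 arrays. Ptgs2, the inducible cyclooxygenase, read 0.0924, 0.0892 and 0.103 on the NS arrays and 12.8, 13.2 and 12.5 on the NS + LPS arrays (136-fold, log2 difference 7.09, SE 0.08, adjusted p = 9.41e-13; chromosome 1, 151954744 to 151954803). The rest of the eicosanoid list did not follow it, with 7 of 13 lower and 4 higher. The leukotriene enzyme Alox5 went from 17.4, 17 and 16.5 in NS to 3.92, 3.93 and 3.9 in NS + LPS (4.33-fold lower; chromosome 6, 116360326 to 116360385), the prostaglandin D synthase Hpgds fell 4.62-fold and the constitutive cyclooxygenase Ptgs1 2.25-fold.

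Of 15 antimicrobial and acute-phase genes 9 were higher and 1 lower (median 0.38). After Lcn2 the largest rise was that of S100a8, a metal-binding protein of neutrophils and monocytes, at 0.0814, 0.0747 and 0.0856 without LPS and 0.857, 0.93 and 0.977 with it (11.4-fold). Saa3, the acute-phase serum amyloid of macrophages, rose 3.48-fold (1.80, SE 0.15; chromosome 7, 53970389 to 53970448), and Slc11a1, which pumps metal out of the phagosome, by 1.33. The phagocyte oxidase genes Cybb (0.052, adjusted p = 0.482) and Cyba (-0.081, adjusted p = 0.194) were not called, and Ncf1 fell by 0.53 on the log2 scale. In iron handling, with 6 higher and 4 lower of 11, Trf, which codes for transferrin, went from 2.43, 2.55 and 2.28 in NS to 0.281, 0.271 and 0.312 in NS + LPS (8.41-fold lower; chromosome 9, 103111207 to 103111266). Steap3, the ferrireductase, fell 2.55-fold, and the heme oxygenase Hmox1 rose 3.82-fold from 25.9, 24.6 and 24 in NS to 96.6, 93.3 and 94.1 in NS + LPS. Complement gave 5 higher and 3 lower of 9 (median 0.90; 0.40 with no filter and 0.26 over genes above background on every array). The alternative pathway protease Cfb read 0.0872, 0.0799 and 0.0704 on the NS arrays and 4.54, 4.53 and 4.46 on the NS + LPS arrays (57.2-fold; chromosome 17, 34993502 to 34993858).

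Matrix and protease genes were higher in 8 of 10 tested of 20 on the array (median 2.20, 0.59 with no filter). Osteopontin, Spp1, read 19.1, 20.9 and 20.2 on the NS arrays and 238, 237 and 226 on the NS + LPS arrays (11.7-fold; chromosome 5, 104868502 to 104868561). The growth factor Hbegf rose 12.5-fold and the gelatinase Mmp9, well above background on only some NS arrays, 24.2-fold. In the osteoclast list, 5 of 12 were higher and 3 lower. Car2, the carbonic anhydrase that supplies acid, rose 3.77-fold and the fusion gene Dcstamp 2.11-fold, while the master regulator Nfatc1 was at -1.01 on the log2 scale on its brightest probe and 0.26 on the other.

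Receptors of the resting macrophage divided into gains and losses. Of 23 surface receptor genes 9 were higher and 12 lower (median -0.25, or -0.022 with no filter), 39.1% and 52.2% against 28.6% and 35.1% of all genes. The fractalkine receptor Cx3cr1 read 62.9, 55.6 and 53.4 on the NS arrays and 9.49, 10 and 9.45 on the NS + LPS arrays (5.92-fold lower, log2 difference -2.57, SE 0.066, adjusted p = 2.48e-10; chromosome 9, 119957811 to 119957870). Trem1, which amplifies inflammation, fell 4.55-fold, the lysophospholipid receptor Gpr34 was at least 4.36-fold lower, and the growth factor receptor Csf1r read 392, 351 and 335 on the NS arrays and 275, 261 and 295 on the NS + LPS arrays (-0.37, SE 0.075). Fc receptors rose, Fcgr4 5.72-fold and Fcgr1 by 2.06. Scavenger and C-type lectin receptors were higher in 8 of 14 and lower in 4 (median 0.61; 0.38 with no filter). Msr1, which takes up modified lipoprotein, rose 4.55-fold, the fungal receptor Clec4n 5.49-fold, and Cd36, a fatty acid and lipoprotein receptor, read 1.19, 1.26 and 1.21 on the NS arrays and 4.08, 4.23 and 4.06 on the NS + LPS arrays (3.38-fold; chromosome 5, 17288600 to 17288659). Lrp1 was at -0.98 on its brightest probe, with the others at -1.32 and 0.41.

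Lineage transcription factors were called lower in 9 of 15 and higher in 5 (median -0.26, or -0.40 with the mean over probes). Cebpa, a factor of the myeloid lineage, fell 2.89-fold (-1.53, SE 0.047; chromosome 7, 35906517 to 35906576). The AP-1 partner Batf rose 3.98-fold and Ets2 2.63-fold, while Spi1, the master factor PU.1, fell by 0.26 on the log2 scale. Of 8 genes of alternative activation tested, 5 of which passed the filter in both groups and 2 through NS alone (Pparg, called lower, and Ccl24, not called), 5 were lower and 3 not called (median -0.54, or -0.42 with genes at their bound; with no filter the median of this list was 0.066). Tgm2, a cross-linking enzyme, fell by 1.06 and Klf4 by 0.79 on the log2 scale.

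Lipid genes fell more often than they rose, 15 against 7 of 24 (median -0.30). The lipase cofactor Apoc2 fell 6.24-fold and the cholesterol exporter Abcg1 2.9-fold, from 8.7, 8.82 and 8.37 in NS to 2.95, 2.68 and 3.33 in NS + LPS (chromosome 17, 31252580 to 31252639). Mylip, which degrades the LDL receptor, fell 2.49-fold, and Apoe by 0.46 on the log2 scale. The droplet coat gene Plin2 rose by 1.28, next to Fabp4 above. In cholesterol and fatty acid synthesis, 12 were lower and 6 higher of 27 (median -0.15, or -0.080 without the first NS array), 44.4% and 22.2% against 35.1% and 28.6% of all genes. Fasn, the fatty acid synthase, fell 2.82-fold from 1.52, 1.54 and 1.62 in NS to 0.49, 0.613 and 0.562 in NS + LPS, and Dhcr7, a late enzyme of the sterol pathway, fell by 0.95 on the log2 scale.

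Most mitosis genes fell. Of 25 tested 21 were lower (median -0.57), against 35.1% of all genes, though the differences were modest. Mki67, a marker of cycling cells, read 75.2, 82.2 and 83.4 on the NS arrays and 47.4, 52.8 and 52.9 on the NS + LPS arrays (1.57-fold lower, log2 difference -0.65, SE 0.075, adjusted p = 2.39e-05; chromosome 7, 142881591 to 142881650). The cyclins Ccna2 and Ccnb1 fell 2.11-fold and 2.06-fold (other Ccnb1 probes reached -0.092), and the spindle motor Kif11 1.96-fold. DNA replication genes were lower in 16 and higher in 6 of 29 (median -0.16), 55.2% and 20.7% against 35.1% and 28.6% of all genes, with Mcm2 at -0.49 and Ccne1, the cyclin of S phase entry, at 0.42. Among arrest genes and p53 targets 12 of 21 were higher and 6 lower. Gadd45a, well above background on some NS arrays only, rose 10-fold, Gadd45b 2.72-fold and the inhibitor Cdkn1a by 0.87 on its brightest probe (the lowest of 3 stood at -0.67). Sesn1, another p53 target, went from 8.66, 8.7 and 9.01 in NS to 2.76, 2.4 and 2.59 in NS + LPS (3.41-fold lower; chromosome 10, 41628012 to 41628071), and Zmat3 fell 3.17-fold.

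Genes of the integrated stress and unfolded protein responses rose by moderate amounts. Integrated stress response and amino acid genes were higher in 23 of 27 and lower in 1 (median 0.43). Ddit3, the factor CHOP, read 3.07, 3.43 and 2.93 on the NS arrays and 15.4, 14.3 and 15.2 on the NS + LPS arrays (4.77-fold, log2 difference 2.25, SE 0.08, adjusted p = 2.7e-09; chromosome 10, 126732518 to 126732821). Slc7a11, the cystine importer, rose 4.23-fold, Nupr1 2.93-fold and Trib3 2.39-fold, while Atf4, whose protein is controlled at translation, rose by 0.43. Unfolded protein response genes were higher in 15 of 20 and lower in 4 (median 0.37), with Dnajb9 3.22-fold higher and the chaperone Hspa5 at 0.69. NRF2 targets gave 11 higher and 6 lower of 22. Sqstm1, the autophagy receptor p62, rose 3.19-fold and Prdx1 2.07-fold, and Gclc, the rate-limiting enzyme of glutathione synthesis, fell by 0.83 on the log2 scale. Heat shock genes changed little, with 6 higher and 3 lower of 13 (median 0.18; 0.071 without the second NS + LPS array, 0.11 without the first NS array and 0.011, with 4 higher and 5 lower, with the mean over probes). The chaperone Hsp90aa1 rose by 0.53, whereas Dnaja1 rose by 0.47 on its brightest probe and differed by -0.92 on the other. Autophagy and lysosome genes were 14 higher and 15 lower of 38, shares (36.8% and 39.5%) near those of all genes (28.6% and 35.1%), with the regulator Tfeb 2.83-fold lower and Wipi2 higher on its brightest probe but at -0.50 on the other.

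Many mitochondrial genes fell slightly. Respiratory chain and ATP synthase genes were lower in 22 of 34 (median -0.22) and TCA cycle genes in 13 of 22 (median -0.19), with 1 higher in each. These are 64.7% and 59.1%, against 35.1% of all genes. Idh2, which makes NADPH in mitochondria, read 92.9, 87.8 and 84 on the NS arrays and 52.1, 52.3 and 52.2 on the NS + LPS arrays (-0.76, SE 0.049; chromosome 7, 87239736 to 87239795), citrate synthase, Cs, fell by 0.59 and the ATP synthase gene Atp5a1 by 0.48 on the log2 scale. Cytochrome c, Cycs, was the respiratory gene that rose (0.39, SE 0.043; its other probe gave -0.10). Glycolysis genes were higher in 10 and lower in 5 of 22 (median 0.16; 0.062 with quantile normalization, 0.061 with the deposited table and 0.092 with cyclic loess). The glucose transporter Slc2a1 read 25.3, 25.5 and 26 on the NS arrays and 45.2, 44 and 45 on the NS + LPS arrays (1.75-fold; chromosome 4, 118809864 to 118809923), Hk3 rose 1.73-fold and the phosphofructokinase Pfkm fell 2.3-fold. HIF-1 and hypoxia genes were lower in 8 and higher in 3 of 15. Adm, a vessel-dilating peptide, rose 3.44-fold and Ankrd37 fell 2.24-fold, while Hif1a rose by 0.41. Ribosome biogenesis gave 7 higher and 9 lower of 26, shares (26.9% and 34.6%) near those of all genes, with the nucleolar gene Pes1 at -0.84; Ddx21 and Wdr43 rose on their brightest probes and differed by -0.74 and -0.60 on the others.

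Osmolyte genes, which cells raise under hypertonic stress, were 5 higher and 3 lower of 10 with LPS alone. The kinase Sgk1 rose 3.06-fold, Nfat5 by 0.33, the taurine transporter Slc6a6 fell by 0.75 on the log2 scale, and Akr1b3 (0.14, adjusted p = 0.394) and Slc6a12 (0.28, adjusted p = 0.101) were not called. Actb (0.22, SE 0.053) and Gapdh (0.19, SE 0.062), often used as loading controls, were both called slightly higher. The Gapdh probe lies on chromosome X in the file, where copies of the gene may share its signal. That call ended under 7 alternatives, among them quantile normalization (0.10) and the fits without the third NS array (0.12) or the third NS + LPS array (0.15), and the Actb call ended on the shared slide alone (0.21, adjusted p = 0.0609).

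Most markers of other cell types were not well above background on all 3 arrays of either group. The 4 mast cell, 4 epithelial and 4 natural killer cell markers did not reach 3 arrays above background in either group. Siglech, counted with dendritic cells, was high in both groups (79.8 to 90.5 in NS, 79.5 to 86.9 in NS + LPS) and was not called, although another of its 3 probes gave -6.06. In the T cell list, 2 of 5 were detected, Cd3e and Lck, while Cd3g and Cd2 were not well above background on any array. The summed level of the list was 4.39 to 4.77 in NS and 11.8 to 13.3 in NS + LPS, through the kinase Lck (log2 difference 1.77). The endothelial adhesion gene Pecam1, which macrophages also express, rose by 0.85. For the other lists the summed level stayed at 3.54 or less on every array, though signals of different probes are not comparable. That of the B cell list was 0.265 to 0.312 in NS and 0.278 to 1.71 in NS + LPS.

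The LPS effect was set against that in medium with 40 mM added NaCl for 21 index genes, the difference being tested as an interaction. HS + LPS lay on a slide of its own scanned on another day, so salt, slide and scan day cannot be told apart in this comparison. Over all genes 5011 (36.2%) were called, and 13 of the 21 index genes were, 9 of these with a lower value with salt. The Ccl2 difference was 9.06 without added NaCl and 6.54 with it (interaction -2.52, SE 0.20, adjusted p = 2.05e-05) and that of Lcn2 7.77 and 5.45 (-2.32, SE 0.13). Il6 with LPS read 7.0, 7.26 and 6.18 without added NaCl and 0.528, 0.716 and 0.564 with it, with no overlap. The NS signals of Il6, Il1b and Ifnb1 were not well above background, so their fitted differences and interactions (-3.72 for Il6) rest on signals in the background and are not exact sizes. Nos2 rose more with salt, by 7.96 against 5.48 (2.48, SE 0.19, adjusted p = 1.55e-05). The differences of Acod1 (interaction -0.012, adjusted p = 0.911), Ifnb1 (0.13, adjusted p = 0.5), Ptgs2 (0.26, adjusted p = 0.0979) and Nfkbia (-0.0066, adjusted p = 0.948) were not called.

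**Figure D5:**
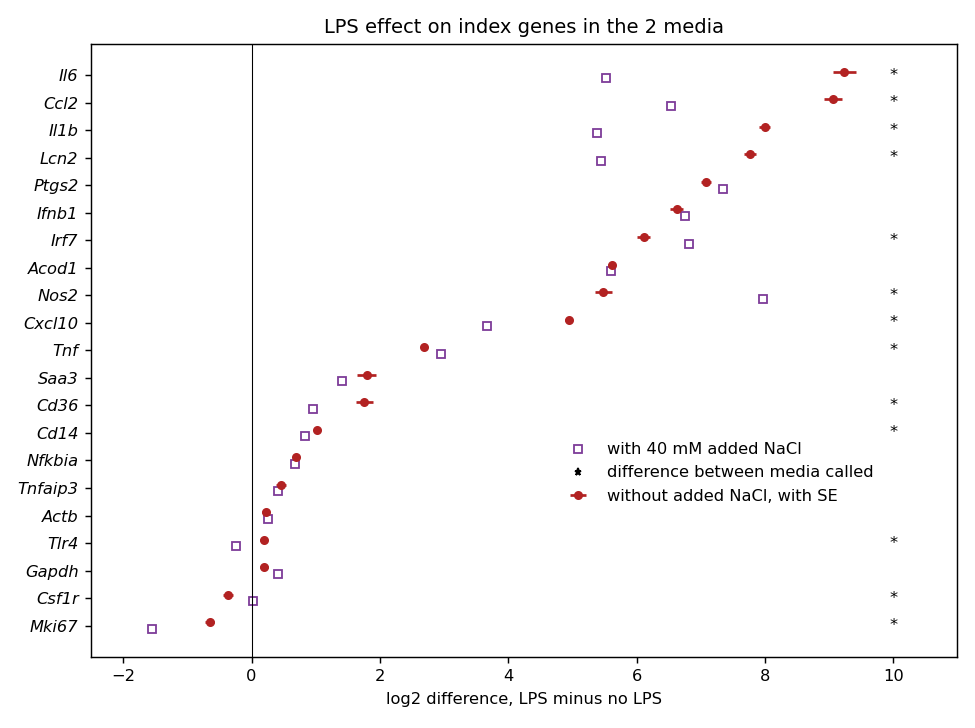
LPS effect (log2 difference, horizontal axis) on 21 index genes without added NaCl (red circles with standard errors, NS + LPS minus NS) and with 40 mM added NaCl (open purple squares, HS + LPS minus HS), n = 3 arrays per group; asterisks mark the 13 genes whose interaction was called. Ccl2, Lcn2 and Cxcl10 lie lower with salt and Nos2 higher. The Il6, Il1b and Ifnb1 points are fitted against NS signals not well above background and are not exact sizes, and HS + LPS lay on its own slide.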

How the data were processed

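Agilent 1-colour arrays (design 028005, probes placed on mm9) were scanned from RAW264.7 RNA; per the file headers, the deposited spot intensity is the background-subtracted signal of Feature Extraction 10.7.3.1, beside raw mean and background intensity and 0 or 1 flags. The authors also deposited a value table of intensity on a linear scale, whose scaling step is not given in the sources used here; its median was 28.8 on every array.

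Of 55681 probes, 33256 were given a symbol through RefSeq accessions, symbols or synonyms. Signals were taken as log2, minus each array's 75th percentile. A probe was kept if well above background on every array of some group, the brightest probe stood for a gene, and limma 3.58.1 in R 4.3.3 was fitted to all 4 groups (8 residual degrees of freedom) with Benjamini-Hochberg adjustment. NS, HS and the first 2 NS + LPS arrays shared a slide. The fit was run on simulated data with independent noise, no slide effect and 200 of 13839 genes changed. It called 92% of differences of 1 and 75% of those of 0.5 on the log2 scale, with 9 false calls. Far more genes were called in the data, so this does not show how the fit does there. Named were the 12 largest rises and falls, the 6 largest bounds each way, the most changed called members of every list (at most 4), 23 index genes and the markers; other list members named were chosen after their values were seen, and a few genes under the rule are not reported here. The members and lists were chosen with earlier results of these data known. Motifs were searched in RefSeq promoter windows on GRCm38.p6. Only the first window listed for a gene was searched, and 4163 genes had over 1 window, so matches at other starts were not counted. Alternatives covered background correction, scaling, filters, probe summary, variance model, array weights, samples in the fit, and replicate and slide blocks. Each NS and NS + LPS array was also left out in turn. The number of arrays limits the precision.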

Additional observations from a re-analysis of the deposited data

Results flagged for a closer look

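The LPS effect differed between the media for 13 of 21 index genes by the interaction in limma (adjusted p under 0.05 over all genes), against 36.2% of all genes. Given as the effect with added NaCl minus the effect without it, on the log2 scale, the cytokine and chemokine values were -3.72 for Il6, -2.62 for Il1b, -2.52 for Ccl2 and -1.28 for Cxcl10, while Tnf gave 0.26. The first 2 of these are fitted against NS signals that no array read well above background, and are not exact sizes. Lcn2 was at -2.32, Nos2 at 2.48 and Irf7 at 0.71. Among receptors the values were -0.43 for Tlr4, -0.18 for Cd14, 0.40 for Csf1r and -0.80 for Cd36, and Mki67 gave -0.90. HS + LPS lay on its own slide and scan day, so these differences and the slide cannot be told apart.

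Probes with no gene symbol, which the comparison of genes does not use, also carried an LPS signal. Of 8169 tested, 2592 were called, 1181 higher and 1411 lower, and 80 were well above background in NS + LPS alone. Calls were thus rarer than among genes, of which 63.8% were called, 28.6% higher and 35.1% lower. Probes for lincRNA regions made up 5573 of those tested, 745 of them higher and 1026 lower, which are again smaller shares than among genes. A probe of that kind on chromosome 1, 85038432 to 85038491 (mm9), rose by 4.93 (SE 0.059). Another unnamed probe on chromosome 1, 175814379 to 175814438, within the span of the raised p200 genes, rose by 5.93 (SE 0.097). Among called probes of this sort well above background on every array of both groups, the lowest value was -2.65 (SE 0.15). That probe lies on chromosome 8, 124861353 to 124861412.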

How the results depend on the processing

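Over 21 alternatives to the processing, the genes called numbered 8169 to 10646, against 8825, the highest with no filter on dim probes (24119 genes tested). The share of calls that were higher was 41.6% with quantile normalization, 50.8% with cyclic loess and 56.5% with no filter, against 44.9%. Leaving out each NS and NS + LPS array in turn gave 8169 to 8538 calls, 1649 to 1670 of them at 2-fold or more. It gave 4162 to 4786 calls for the interaction and 2134 to 2401 unnamed probes. No HS or HS + LPS array was left out, although the interaction rests on them too. Calls of 2-fold or more fell to 1161 with normexp background correction and to 1259 over probes above background on all 12 arrays. With the replicate number as a block, 8632 genes were called, 1663 of them at 2-fold or more, with 4604 for the interaction and 2427 unnamed probes. Same-numbered arrays did not deviate together (correlations 0.013, 0.042 and -0.071), so no pairing by number was seen. With 3 arrays per group this cannot exclude pairing, and the labels do not say whether same-numbered arrays belong together. Of 198 tested genes named by the rule, 191 kept their direction and call in every alternative that gave a value. With the mean over a gene's probes, Dnaja1 turned to -0.22 (adjusted p = 0.024) and Ddx21 to -0.064 (adjusted p = 0.249), while Pfkp (0.22) and Wdr43 (0.0086) lost their call. Pparg lost it with normexp (-0.10, adjusted p = 0.203); the cause was not tested. Signals near background limit the precision, and folds of dim genes depend on the background correction, with 27 of the 198 moving over 1.5 times on the log2 scale with normexp. The median of the CXC list turned from 0.15 to -0.27 over genes above background on all 12 arrays and to -0.23 with the mean over probes.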

Other observations

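Many of the strongly raised genes lay near each other on the chromosomes (mm9 probe positions), a pattern looked for after the data were seen and given as a description with no test. Of 374 genes called at least 4-fold higher with coordinates, 144 (38.5%) had another such gene within 200 kb, against 1664 of 13735 genes tested (12.1%) with such a neighbour. There were 20 runs of 3 or more such genes, 86 genes in all. On chromosome 1, 10 of the 12 genes tested between 175398817 and 175893982 were raised at least 4-fold, all of the p200 family of nucleic acid sensors such as Ifi204 and Mndal. On chromosome 16, between 35832992 and 36450752, 8 of 14 were, from Parp14 and Parp9 to the stefins. A run of Trim genes held 6 of 6 (chromosome 7), the Ifit locus 5 of 6 (chromosome 19) and the Oas locus 5 of 8 (chromosome 5). The Ccl3 to Ccl6 locus, with Wfdc21 counted, held 5 of 8 (chromosome 11). Many of these runs are families of duplicated genes, whose probes may share signal. A run of another kind was that of Acod1, Kctd12 and 4933432I03Rik on chromosome 14, 3 of 3.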
